A study of Mus musculus with 2 samples.

Results

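The miR-181 family of microRNA (miRNA) genes was examined in the neural tube of newborn mice. Its members were the 6 genes Mir181a-1, Mir181a-2, Mir181b-1, Mir181b-2, Mir181c and Mir181d, found by Ensembl identifier among the 1973 miRNA genes of the deposited tables, and all 6 had a row there. The study sequenced small RNA, stated as shorter than 30 bases, from the neural tube of mice of strain B6NCrl at postnatal day 0. The data comprised 1 group of 2 libraries, from a single neural tube each of pup 1 and pup 2 of the same dam, with no treatment or altered allele named in the labels and no sex recorded. No conditions were compared, so the values describe levels within this tissue and the difference between the 2 littermates.

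A miRNA gene is transcribed into a hairpin, from which Drosha and Dicer cut a short duplex with a 5p and a 3p arm. The arm that is loaded into an Argonaute protein finds target mRNAs mainly through its seed, bases 2 to 8. The miR-181 genes lie as neighbouring pairs at 3 places in the genome. They are best known from developing lymphocytes, where miR-181a tunes the sensitivity of the T cell receptor, and they are also expressed in brain and retina.

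The mature sequences are shown first because they determine which reads can be assigned to a single gene. They are from RefSeq (GRCm38.p6), are written 5′ to 3′, and have the seed in capitals. The 5p arms were as follows.
miR-181a-5p (Mir181a-1 and Mir181a-2): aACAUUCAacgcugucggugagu
miR-181b-5p (Mir181b-1 and Mir181b-2): aACAUUCAuugcugucgguggguu
miR-181c-5p (Mir181c): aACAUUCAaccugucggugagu
miR-181d-5p (Mir181d): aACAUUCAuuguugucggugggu

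All 4 distinct 5p sequences carry the seed ACAUUCA. Among 1738 mature entries of the RefSeq table, no gene outside these 6 has a mature arm with that seed. The miR-181c-5p sequence equals miR-181a-5p with the G at position 11, counted from the 5′ end, removed. Over their common length miR-181d-5p differs from miR-181b-5p by the single substitution C12U, and miR-181b-5p differs from miR-181a-5p by A9U, C10U and A21G.

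The 3p arms differ from gene to gene and do not carry the 5p seed. Their own bases 2 to 8 are in capitals.
miR-181a-1-3p: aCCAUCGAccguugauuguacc
miR-181a-2-3p: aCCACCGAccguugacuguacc
miR-181b-1-3p: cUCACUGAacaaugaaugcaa
miR-181b-2-3p: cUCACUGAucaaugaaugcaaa
miR-181c-3p: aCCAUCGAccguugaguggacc
miR-181d-3p: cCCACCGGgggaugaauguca

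By bases 2 to 8 the 3p arms fall into 4 groups. Those of Mir181a-1 and Mir181c share CCAUCGA, those of both Mir181b genes share UCACUGA, and those of Mir181a-2 and Mir181d stand alone. The 3p arms of Mir181a-1 and Mir181a-2 differ by U5C and U16C, and those of Mir181a-1 and Mir181c by U16G and U19G. The 3p arms of Mir181b-1 and Mir181b-2 differ by A9U over their common length.

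In the hairpins of the copied genes the 5p arm lies wholly within a stretch that both copies share. It is in capitals here.
Mir181a-1: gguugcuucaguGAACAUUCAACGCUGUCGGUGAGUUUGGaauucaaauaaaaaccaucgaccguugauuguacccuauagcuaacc
Mir181a-2: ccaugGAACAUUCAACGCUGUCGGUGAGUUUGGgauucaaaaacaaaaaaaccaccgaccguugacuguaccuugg
Mir181b-1: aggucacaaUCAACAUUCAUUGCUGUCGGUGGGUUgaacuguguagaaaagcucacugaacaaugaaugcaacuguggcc
Mir181b-2: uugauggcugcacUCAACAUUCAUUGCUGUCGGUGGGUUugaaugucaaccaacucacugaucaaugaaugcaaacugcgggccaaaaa

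The shared stretch is 28 bases long in the Mir181a hairpins and reaches 1 base before and 4 bases after miR-181a-5p. It is 26 bases long in the Mir181b hairpins, reaches 2 bases before miR-181b-5p and ends with its last base. A read that lies inside such a stretch fits both genes. The deposited gene counts leave out reads that fit several places, a class that held 35.7% of all reads in pup 1 and 35.4% in pup 2. How many of those reads were miR-181 was not measured, since the tables give that class only as a total.

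**Figure D1:**
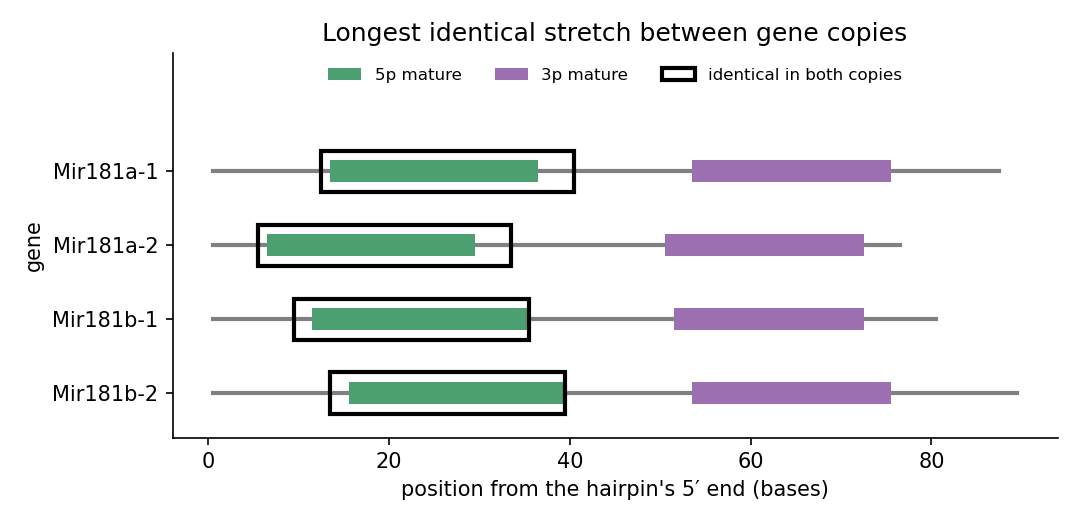
Hairpins of the 4 copied miR-181 genes, with position in bases from the 5′ end of the hairpin on the horizontal axis, the 5p and 3p mature arms as coloured bars and the longest stretch identical in both copies as a black box. The box, of 28 bases in the Mir181a hairpins and 26 in the Mir181b hairpins, encloses the 5p arm and leaves the 3p arm outside in each of the 4 hairpins.

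Windows of 22 bases, about the length of a miRNA, gave the same division. Of the 66 windows in the Mir181a-1 precursor 7 also occur in another miRNA gene, and of the 55 in Mir181a-2 also 7; the other gene was in each case the second copy. In Mir181b-1 5 of 59 windows and in Mir181b-2 5 of 68 are shared, again only between these copies. These precursor sequences are those of the GENCODE M21 transcripts. None of the 68 windows of Mir181c and none of the 51 of Mir181d occurs in another miRNA gene. Counted without gaps, the arms of the family closest to another gene without being identical are miR-181d-5p and miR-181b-1-3p. The first is 1 mismatch from the Mir181b genes and the second 1 mismatch from Mir181b-2. With a gap allowed miR-181c-5p is also close, being miR-181a-5p with 1 base removed. How mismatches were treated in the alignment is not given in the sources used here. The values below are therefore counts of uniquely placed reads per precursor gene, with arms not separated, and are not levels of mature miR-181a or miR-181b. In the copied genes, reads wholly within the shared stretch, which holds the 5p arm, fit both copies and are left out. Counts of the copied genes thus come from reads that reach outside that stretch, such as those of the 3p arm. Counts of Mir181c and Mir181d can hold both arms.

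The first genomic pair lies on chromosome 1 (mm10, plus strand). Mir181a-1 (ENSMUSG00000065565.1) spans 137966455 to 137966541 and Mir181b-1 (ENSMUSG00000065458.1) 137966639 to 137966718, with 97 bases between them. Both fall in an exon of the long noncoding gene A430106G13Rik on the same strand in GENCODE M21. The second pair lies on chromosome 2 (plus strand), where Mir181a-2 (ENSMUSG00000065423.1) spans 38852735 to 38852810 and Mir181b-2 (ENSMUSG00000065578.1) 38853830 to 38853918, 1019 bases apart. Both lie opposite to an intron of Nr6a1, an orphan nuclear receptor gene. The third pair lies on chromosome 8 (minus strand), where Mir181c (ENSMUSG00000065483.1) spans 84178873 to 84178961 and Mir181d (ENSMUSG00000076338.1) 84178716 to 84178787, 85 bases apart. Both lie in an intron annotated to Nanos3, a gene known from germ cells, on the same strand.

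The libraries held 3216453 (pup 1) and 3660693 (pup 2) own-strand counts in miRNA genes, to which all CPM values (counts per 1000000 own-strand counts) are scaled. Of the neuronal marker genes listed for the tissue check, 8 of 11 measured genes reached 10 counts in each pup and the list held 2.31% and 2.71% of the counts, with Mir137 at 15026 and 17125 CPM. Of the copies of defining neuronal miRNAs, Mir124a-1 had 20 and 50 unique counts and Mir9-3 had 1447 and 1715. The other copies were lower, with Mir124a-2 at 4 and 3, Mir124a-3 at 7 and 10 and Mir9-2 at 3 and 7. Mir9-1 was not measured. Each of the measured Mir124a and Mir9 genes shares a window of 22 bases with another miRNA gene, and reads that fit both are left out. These counts are therefore not levels of their mature miRNAs. Mir126a of endothelium held 2.78% and 2.60% of the counts and the 6 genes of the mesenchyme list 1.07% and 1.14%. The oligodendrocyte list held 0.185% and 0.222% and the erythroid list 0.0128% and 0.0152%. The striated muscle list held 0.0069% and 0.0102%, and Mir122 of liver 0.0104% and 0.0064%. Of 5 listed genes of lymphoid and myeloid cells, in which miR-181a is also known, 4 were measured and together held 0.0617% and 0.0690%. The gene of that list not measured was Mir142. The part of these other cell types in the miR-181 counts was not tested.

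Each of the 6 miR-181 genes reached 10 own-strand counts in pup 1 and in pup 2, as did 352 of the 1973 genes in the tables. Together they held 54674 counts in pup 1 and 61408 in pup 2. These were 1.70% (exact 95% Clopper-Pearson interval 1.69 to 1.71%) and 1.68% (1.66 to 1.69%) of the own-strand counts, a mean of 1.69% ± 0.016 (SD, n = 2). In whole tissue, fewer cells that make a miRNA and less of it per cell cannot be told apart. The reads carried no stated molecular identifiers, so intervals here and below cover counting error only.

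The chromosome 8 pair held most of the family's counts. Mir181c and Mir181d together had 45235 counts in pup 1 and 50397 in pup 2, which were 82.7% and 82.1% of the family. The Mir181a-1 and Mir181b-1 pair held 13.8% and 12.4%, and the Mir181a-2 and Mir181b-2 pair 3.44% and 5.57%. The order of the 3 pairs was the same in both pups. The 4 genes of the lower pairs are also the 4 that share a stretch with another gene, so a lower output of these loci and the loss of reads that fit both copies cannot be told apart in this order.

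Mir181c, whose mature arms are unique to it, was the most abundant member. It had 29385 counts in pup 1 and 33490 in pup 2, or 9136 and 9149 CPM (mean 9142 ± 8.98, SD, n = 2), and ranked 17 among all miRNA genes. The genes nearest to it in level were Mir149 (10240 CPM ± 897) and Mir99b (9295 ± 744) above, and Mir23b (9022 ± 1972) and Mirlet7b (8935 ± 484) below. These neighbours are named for level only, since 2 libraries give no profile to compare.

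Mir181d, which lies next to Mir181c, was the second member. It had 15850 and 16907 counts, or 4928 and 4619 CPM (mean 4773 ± 219, SD, n = 2), at rank 33. Its level lay below that of Mir181c in both pups.

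Mir181a-1 was the most abundant gene of the copied members. It had 7537 and 7559 counts, or 2343 and 2065 CPM (mean 2204 ± 197, SD, n = 2), at rank 61. Its copy Mir181a-2, with the same 5p arm, had 244 and 281 counts, or 75.9 and 76.8 CPM (mean 76.3 ± 0.64, SD, n = 2), at rank 225. In each pup the counts of the 2 copies were thus far apart.

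The Mir181b copies showed the opposite order of chromosomes. Mir181b-2, on chromosome 2, had 1639 and 3138 counts, or 509.6 and 857 CPM (mean 683 ± 246, SD, n = 2), at rank 110, and was the member whose pups differed most in CPM. Mir181b-1, on chromosome 1, had 19 and 33 counts, or 5.91 and 9.01 CPM (mean 7.46 ± 2.20, SD, n = 2), at rank 307. Both values of Mir181b-1 were above the 3 counts that a count of 0 would allow (0.933 CPM in pup 1 and 0.820 CPM in pup 2). The genes next to it in level were Mir26a-1 (7.95 CPM ± 1.12) and Mir3106 (7.78 ± 4.82) above, Mir5113 with the same counts as Mir181b-1, and Mir6236 (7.46 ± 0.89) below.

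**Figure D2:**
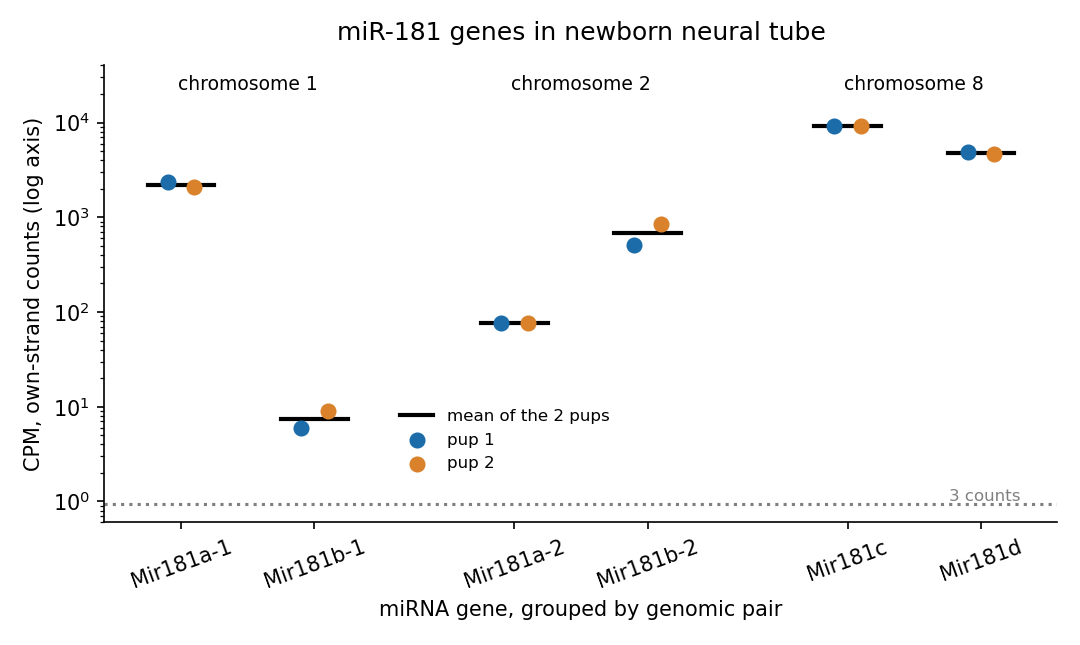
Level of each miR-181 gene in CPM of own-strand counts (log axis), grouped by genomic pair, with each pup as a point and the mean as a line; the dotted line marks the 3 counts that a count of 0 allows in pup 1. Mir181c stands highest at 9142 CPM and Mir181b-1 lowest at 7.46 CPM, and the a gene is the higher of its pair on chromosome 1 but the lower on chromosome 2.

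The order of levels was therefore Mir181c, Mir181d, Mir181a-1, Mir181b-2, Mir181a-2 and Mir181b-1. A difference in mean log2(CPM + 1) was called where it exceeded the 95% normal limit of the SD between the pups, pooled over genes of like abundance. In counts not divided by length, Mir181c lay 1.92-fold above Mir181d, Mir181d 2.17-fold above Mir181a-1, Mir181a-1 3.32-fold above Mir181b-2, Mir181b-2 8.56-fold above Mir181a-2, and Mir181a-2 9.30-fold above Mir181b-1. Per base of annotated precursor these folds of the level were 1.55, 2.62, 3.40, 7.32 and 9.77. All 8 pairs compared, these 5 and the 3 further pairs of neighbours or copies, exceeded the limit on both scales. That share says little on its own, since 92% of all pairs of detected genes did so. The smallest of the 8 differences, Mir181c against Mir181d, was 0.94 on the log2 scale against a limit of 0.32. The pooled SD holds differences between the pups and no bias that both libraries share.

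The split of counts within the genomic pairs took 3 forms. On chromosomes 1 and 2 it compares reads outside the stretch shared with the other copy, which holds the 5p arm. On chromosome 8 reads of both arms can count. The split of all reads made from a pair was not measured. On chromosome 1 nearly all counts belonged to the a gene. Mir181a-1 held 99.7% of the pair's counts in pup 1 (exact 95% interval 99.6 to 99.8%) and 99.6% in pup 2 (99.4 to 99.7%), a count 397-fold and 229-fold that of Mir181b-1 and 365-fold and 211-fold per base of precursor. On chromosome 2 the b gene held most. Mir181a-2 had 13.0% of the pair's counts in pup 1 (11.5 to 14.6%) and 8.22% in pup 2 (7.32 to 9.19%), so that Mir181b-2 exceeded it 6.72-fold and 11.2-fold in counts and 5.74-fold and 9.54-fold per base.

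On chromosome 8, where neither gene shares a stretch with another, the split was the most even. Mir181c held 65.0% of the pair's counts in pup 1 (64.5 to 65.4%) and 66.5% in pup 2 (66.0 to 66.9%). It exceeded Mir181d 1.85-fold and 1.98-fold in counts and 1.50-fold and 1.60-fold per base. The intervals of the 3 pairs, which cover counting error only, did not overlap in either pup. How often the intervals of other neighbouring pairs overlap was not tested. The a gene was the larger on chromosome 1 and the b gene on chromosome 2.

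**Figure D3:**
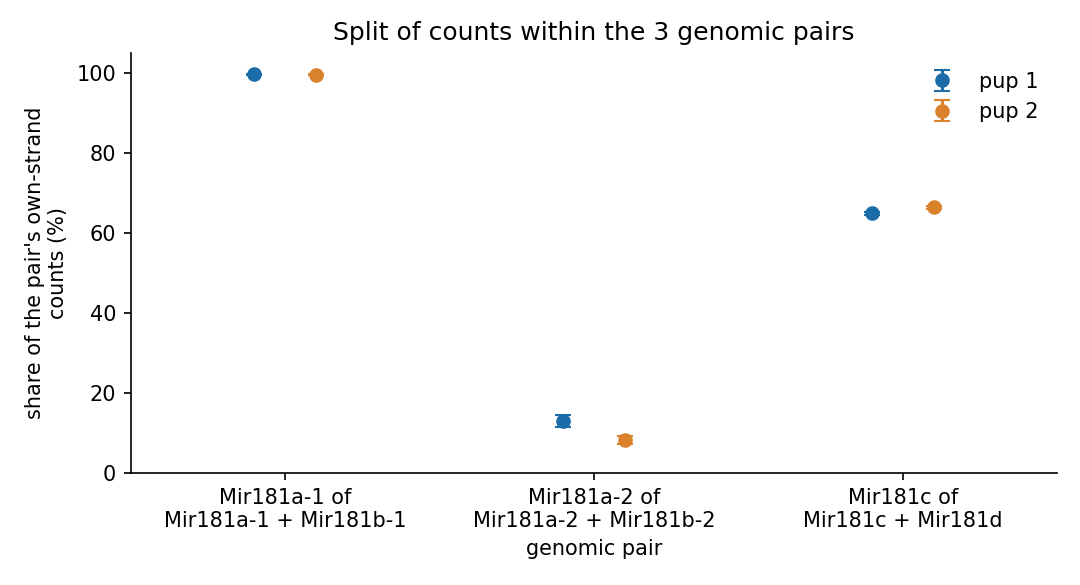
Share of a genomic pair's own-strand counts held by Mir181a-1, Mir181a-2 or Mir181c, in percent, with each pup as a point and its exact 95% binomial interval as the error bar. The share is over 99% on chromosome 1, between 8.22% and 13.0% on chromosome 2 and between 65.0% and 66.5% on chromosome 8.

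Other neighbouring miRNA genes give a scale for these splits. Of all neighbouring miRNA genes on the same strand within 10 kb of each other, 100 pairs had at least 10 counts summed over the pups in each gene. The larger gene held a median of 85.4% of a pair's counts. For Mir181a-1 with Mir181b-1 it held 99.7%, at rank 7 of the 100 pairs, and 11 pairs were above 99%. For Mir181b-2 with Mir181a-2 it held 90.1%, at rank 43, and for Mir181c with Mir181d 65.7%, at rank 78. In uniquely placed reads, the family thus spans from among the most uneven pairs to the more even ones.

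**Figure D4:**
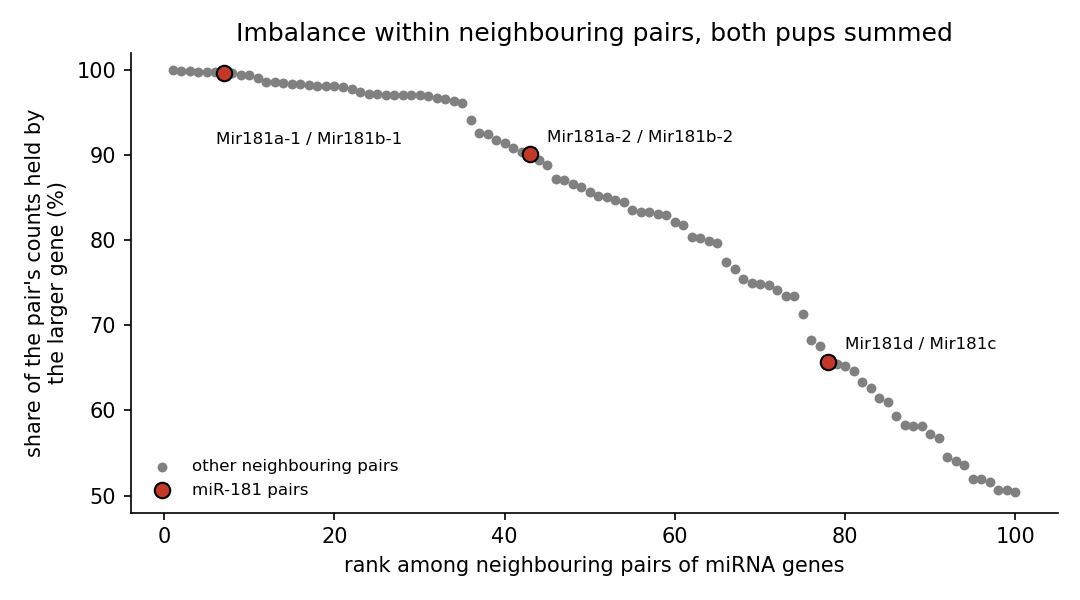
Share of the summed counts of both pups that the larger gene of a pair holds, in percent, for 100 pairs of neighbouring miRNA genes ranked from most to least uneven, with the 3 miR-181 pairs in red. They stand at ranks 7, 43 and 78, with shares of 99.7%, 90.1% and 65.7%.

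The Mir181a and the Mir181b copies, which make the same 5p arm, were compared with 3 further miRNAs of nervous tissue made by 2 genes. The shares are of uniquely placed reads. Which arm the copies of those 3 miRNAs share was not compared, so the reads lost may be of another arm. Mir181a-1 held 96.9% (96.5 to 97.2%) of the counts of both Mir181a genes in pup 1 and 96.4% (96.0 to 96.8%) in pup 2. Mir181b-2 held 98.9% (98.2 to 99.3%) and 99.0% (98.5 to 99.3%) of those of both Mir181b genes. For Mir128, enriched in neurons, Mir128-1 held 77.7% (76.9 to 78.4%) and 78.7% (78.1 to 79.4%). For Mir138, a miRNA of dendrites, Mir138-1 held 60.9% (59.8 to 62.1%) and 59.5% (58.6 to 60.4%), and Mir125b-1 held 34.4% (33.4 to 35.4%) and 38.1% (37.1 to 39.0%) of the Mir125b counts. The intervals of both miR-181 copy pairs lay outside those of these 3 copy pairs in each pup. Uneven copies were not particular to miR-181, however. Among all 20 measured pairs of genes that alone make the same mature arm, with at least 10 counts summed in each, the larger copy held a median of 77.6% of the pair's counts. Among these 20 pairs the Mir181b copies stood at rank 1 with 98.9% and the Mir181a copies at rank 3 with 96.6%. Between them Mir196a-2 of the Hox clusters held 98.7% against Mir196a-1. The minimum of 10 counts leaves out pairs whose smaller copy lies below it, and such pairs can be more uneven. Mir194-1, for example, had 4 and 2 counts against 316 and 420 for Mir194-2. Mir219a-2, known from oligodendrocytes, held 93.5% against Mir219a-1. The longest stretch shared by the copies was 28 bases for Mir181a, 26 for Mir181b, 24 for Mir138 and 23 for Mir128, and was not determined for Mir125b.

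The pups were compared by an exact two-sided binomial test of their counts, given the own-strand totals, with Benjamini-Hochberg adjustment over the 413 genes with at least 10 counts summed. This compares 2 libraries and covers counting error only. It called 40.9% of the tested genes different. Of the 6 miR-181 genes 3 were called, close to that share, with 1 higher in pup 2 (25.7% of all tested genes were) and 2 lower (15.3%). Their median log2 ratio of pup 2 to pup 1 was 0.01, against 0.04 over all tested genes.

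Mir181b-2 was higher in pup 2, with 857 against 509.6 CPM. Its ratio was 1.68 (exact 95% interval 1.58 to 1.79), a log2 ratio of 0.75 with a binomial adjusted p of 9.5e-67. Mir181a-1 was lower in pup 2, at a ratio of 0.881 (0.853 to 0.91) and a log2 ratio of -0.18 (binomial adjusted p = 5.7e-14). Mir181d was lower by less, at 0.937 (0.917 to 0.958) and a log2 ratio of -0.094 (binomial adjusted p = 2.3e-08).

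The other 3 members were not called. The ratio of Mir181c was 1.00 (0.986 to 1.02; binomial adjusted p = 0.92), that of Mir181a-2 1.01 (0.849 to 1.21; p = 0.94) and that of Mir181b-1 1.51 (0.843 to 2.84; p = 0.29). Mir181c was called lower in pup 2, at a log2 ratio of -0.039, with TMM or DESeq2 scaling (binomial adjusted p = 0.0025 and 0.0022). The sign of the log2 ratio of Mir181a-2 also turned under these scalings, to -0.024 and -0.025. At 19 and 33 counts, the interval of Mir181b-1 includes both no difference and the ratio of Mir181b-2 given above.

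With an assumed variation between libraries, fewer differences stood. An edgeR exact test with the biological coefficient of variation preset at 0.1, a value assumed and not estimated from these libraries, called 14 of the 413 genes (3.39%). Among them Mir181b-2 was the only miR-181 gene (edgeR exact test, adjusted p = 0.021). That call depends on the preset, and no larger preset was tried. Pooled over genes of its abundance class, 201 to 1181 CPM, the SD between these pups was 0.21 on the log2 scale, wider than the preset. In that edgeR test the adjusted p was 0.90 for Mir181a-1, 0.99 for Mir181d, 0.80 for Mir181b-1 and 1 for Mir181a-2 and for Mir181c.

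**Figure D5:**
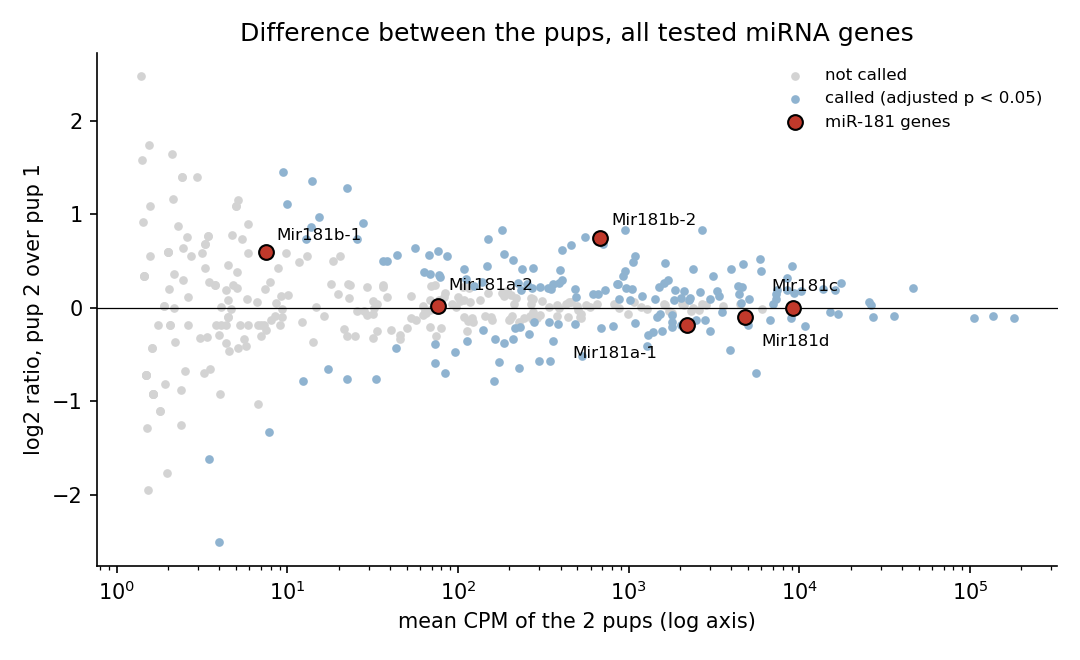
Log2 ratio of pup 2 over pup 1 against the mean CPM (log axis) for the 413 tested miRNA genes, blue where the binomial test called a difference, with the 6 miR-181 genes in red. Mir181b-2 lies at 0.75 and Mir181b-1 at 0.59, while the other 4 lie between -0.18 and 0.02.

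Whether the split within a pair differed between the pups was tested directly with Fisher's exact test, two-sided, adjusted over the 100 neighbouring pairs. The split differed in 36 pairs (36%), again with counting error alone. The share of Mir181a-2 in its pair fell from 13.0% in pup 1 to 8.22% in pup 2 (Fisher's exact test, adjusted p = 2.7e-07), with Mir181b-2 at 509.6 and 857 CPM and Mir181a-2 at 75.9 and 76.8 CPM. The share of Mir181c in its pair went from 65.0% to 66.5% (Fisher's exact test, adjusted p = 5.6e-06), a change of small size. That of Mir181a-1 went from 99.7% to 99.6% and was not called (Fisher's exact test, adjusted p = 0.15). With 1 library per pup, whether these changes of split exceed the variation between libraries was not tested.

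Opposite-strand counts were nearly absent at these loci. Mir181a-2, which lies opposite to an intron of Nr6a1, had 1 such count in each pup, and the other 5 genes had 0 in both, which allows up to 3 counts in each library.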

How the data were processed

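For both libraries the values deposited by the authors are raw counts, 1 row per miRNA gene, with separate columns for either strand, own strand and opposite strand. The descriptions deposited with the files name mm10 as the genome build and GENCODE M4 as the annotation. Which aligner and counter were run, and how mismatches were handled, is not given in the sources used here. Read classes that name no gene stayed out of totals: unmapped reads took 10.8% and 11.0% of all reads, those that fit several places 35.7% and 35.4%, and those outside miRNA genes 1.89% and 1.69%.

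Own-strand counts were used. Gene symbols, coordinates and host genes were taken from GENCODE M21 (same build; 1894 of 1973 Ensembl identifiers matched), and mature and hairpin sequences from RefSeq by symbol, with mature arms for all 6 members and hairpins for all but Mir181c. Shared windows were searched on both strands of the 2202 miRNA precursors of the GENCODE M21 transcript file, which includes Mir181c, leaving out genes overlapping at the same place. Levels per base are counts over precursor length, scaled to 1000000. The SD was pooled within 4 classes of abundance among genes with at least 10 counts in both pups. For log2 ratios, 0.5 was added to both counts. A p-value covers the spread it names and not the variation between animals, and 1 library per pup left no residual degrees of freedom for edgeR's quasi-likelihood test. In simulations that held only counting error, the comparison of the pups by the binomial test called 2.44% of 205 unchanged genes. It called 86% of 50 genes changed 2-fold. The simulated test took its totals from the unchanged genes alone, whereas the test of the pups used the totals of all miRNA genes. The 2 shares therefore do not measure the error of the test as applied to the pups. How they depend on the totals used for scaling was not tested. In the same simulations Fisher's exact test called 1.33% of 300 unchanged splits. Those simulated pairs had equal totals in both pups, fewer counts than the chromosome 8 pair and less uneven splits than the chromosome 1 pair. The share at the settings of the miR-181 pairs was not tested.

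All 6 members are named, with the 2 genes above and below the highest and lowest member in level, and copies of Mir128, Mir138 and Mir125b. The Mir137, Mir124a, Mir9, Mir194, Mir196a and Mir219a values and the comparison over all copies were chosen after they were seen. The members, lists and tests were chosen with earlier results of these data known. Alternatives were TMM and DESeq2 scaling, either-strand counts, other count minimums, pseudocounts and distances, division by length, leaving out the most abundant gene or each pup, and the edgeR exact test. Python 3.11.15 was used with scipy 1.17.1, numpy 2.4.6, pandas 2.3.3 and matplotlib 3.10.9, and DESeq2 1.42.0 and edgeR 4.0.16 ran in R 4.3.3.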

Additional observations from a re-analysis of the deposited data

How the results depend on the processing

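Without the most abundant gene in the total, by construction of the smaller total, the levels were 11159 CPM (Mir181c), 5828 (Mir181d), 2692 (Mir181a-1) and 93.1 (Mir181a-2), and the family held 2.06% of the counts. With either-strand counts the family held 1.65%, Mir181c stood at 8947 CPM and Mir181a-2 at 75.0. Divided by precursor length, the levels were 8161 (Mir181c), 5266 (Mir181d) and 79.8 (Mir181a-2) per 1000000, and Mir181c held 60.8% of its pair. The log2 ratio of Mir181a-2 turned to -0.024 with TMM and -0.025 with DESeq2 scaling, and that of Mir181c to -0.0389 and -0.0393; these scalings move all ratios alike. In the edgeR exact test with preset variation the ratios of Mir181a-1 (-0.18) and Mir181d (-0.094) were no longer called, and 14 genes were called in place of 169. With neighbours within 1 kb, 21 of 65 pairs had a split that differed, in place of 36 of 100, by construction of the fewer pairs; the chromosome 2 pair, 1019 bases apart, was then not among them. Under the alternatives, 101 further values were classed as the same. Levels, shares and ratios among them stayed on the same side of their test or moved by less than their SD. The rest were counts of genes, pairs or members, which have no SD. Values with 1 pup left out are among the 101. With 2 pups, leaving out 1 moves a mean by less than the SD by construction, so it shows nothing of stability. No paired analysis was possible because the data hold 1 group. Depth limits Mir181b-1, at 19 and 33 counts.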
